A study of Mus musculus with 8 samples.

Results

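The 9 genes described here encode the peroxisome proliferator-activated receptors (Ppara, Ppard and Pparg), the retinoid X receptors that pair with them (Rxra and Rxrb), a corepressor and its histone deacetylase (Ncor1 and Hdac3), and the PGC-1 coactivators (Ppargc1a and Ppargc1b). They were taken by gene symbol from the 38283 genes of a liver mRNA-sequencing table, and 9 of 9 had more than 1 FPKM (sequenced fragments scaled to transcript length and to library size) in at least 1 library. The table holds 8 polyA RNA libraries from male C57BL/6 mice: RORα f/f mice, which carry floxed Rora alleles and no Cre, and RORα LKO mice (Alb-cre;RORa f/f), in which Cre under the albumin promoter deletes exons 4 and 5 of Rora, the gene of the orphan nuclear receptor RORα, in hepatocytes. Mice of both genotypes were placed on control diet (CD) or high-fat diet (HFD) at 8 weeks of age for 10 weeks. Each of the 4 groups has 2 libraries, each made from the pooled livers of 2 mice, so that p-values measure the spread between pools. Floxed alleles are shared by all 4 groups. Whether the other liver cell types keep Rora in RORα LKO mice was not measured here.

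PPARs are nuclear receptors that bind DNA as heterodimers with RXRs and respond to fatty acids and their derivatives. In liver, PPARα drives fatty acid oxidation and ketogenesis, while PPARγ is known as the main receptor of fat cells and is linked to fat storage when it is raised in hepatocytes. NCoR1 brings HDAC3 to such receptors to keep their targets off, and PGC-1α and PGC-1β are coactivators that bind them and raise mitochondrial and oxidative genes. The comparisons ask whether loss of RORα, the diet, or their combination went with altered mRNA of these receptors and coregulators.

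Annotated start-site windows of Pparg and Rxra are shown because these were the members that passed the adjusted test in any comparison (diet, described below). Each window is RefSeq sequence of the GRCm38.p6 build, 5′ to 3′, from 250 bases before to 50 after a start, and capitals mark matches to the nuclear receptor half-site AGGTCA on either strand.
Pparg, upstream start (chr6:115360894-115361193, plus strand): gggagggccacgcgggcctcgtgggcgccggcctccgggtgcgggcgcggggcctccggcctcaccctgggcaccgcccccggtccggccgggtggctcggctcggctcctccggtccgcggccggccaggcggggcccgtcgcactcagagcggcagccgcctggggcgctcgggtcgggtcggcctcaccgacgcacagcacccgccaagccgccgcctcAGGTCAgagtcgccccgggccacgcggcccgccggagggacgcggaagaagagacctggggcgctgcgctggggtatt
Pparg, intermediate start (chr6:115362099-115362398, plus strand): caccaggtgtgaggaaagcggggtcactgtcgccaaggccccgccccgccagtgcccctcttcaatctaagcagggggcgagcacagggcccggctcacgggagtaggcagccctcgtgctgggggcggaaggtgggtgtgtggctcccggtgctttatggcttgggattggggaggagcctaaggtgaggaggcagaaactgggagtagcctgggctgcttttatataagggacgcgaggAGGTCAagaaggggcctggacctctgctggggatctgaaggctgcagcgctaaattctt
Pparg, downstream start (chr6:115421816-115422115, plus strand): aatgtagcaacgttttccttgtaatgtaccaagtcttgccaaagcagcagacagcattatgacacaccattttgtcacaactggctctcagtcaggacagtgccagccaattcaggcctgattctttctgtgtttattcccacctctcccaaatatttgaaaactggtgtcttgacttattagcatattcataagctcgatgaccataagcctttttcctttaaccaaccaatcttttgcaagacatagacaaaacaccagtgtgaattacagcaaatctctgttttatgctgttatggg
Rxra, upstream start (chr2:27676951-27677250, plus strand): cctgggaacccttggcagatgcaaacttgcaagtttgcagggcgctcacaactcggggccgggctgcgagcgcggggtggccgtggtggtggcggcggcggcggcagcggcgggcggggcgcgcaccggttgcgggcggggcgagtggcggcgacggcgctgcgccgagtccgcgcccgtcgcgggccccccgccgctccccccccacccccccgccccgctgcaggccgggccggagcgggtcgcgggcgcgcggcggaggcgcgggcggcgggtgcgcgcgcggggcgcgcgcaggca
Rxra, downstream start (chr2:27709042-27709341, plus strand): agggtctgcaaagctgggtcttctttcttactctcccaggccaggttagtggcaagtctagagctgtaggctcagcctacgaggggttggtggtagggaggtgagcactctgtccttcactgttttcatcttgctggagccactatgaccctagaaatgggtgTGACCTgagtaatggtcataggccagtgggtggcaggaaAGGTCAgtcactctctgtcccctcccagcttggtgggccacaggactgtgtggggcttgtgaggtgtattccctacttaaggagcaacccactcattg
The half-site in the upstream Pparg window began 28 bases before the start and that in the intermediate window 9 bases before it. The downstream Rxra window held 2 matches, 1 on each strand, beginning 87 and 48 bases before the start. Over the 12 windows of 7 members in the RefSeq table, 3 held AGGTCA, against 16.3% of all 32851 windows of that length. None of the 12 held the direct repeat with 1 base between, AGGTCANAGGTCA (0.0396% of all windows), the longer forms TAGGTCA (2.61%) and TGGGTCA (3.98%), of which TAGGTCA contains AGGTCA, the cAMP response element TGACGTCA (1.79%) or the E-box CACGTG (7.15%). Matches are a description of the letters in these windows and were not tied to the expression values.

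Libraries were alike in breadth, with 10587 to 10706 genes above 1 FPKM, and the 10 highest genes took 29.7 to 43.7% of the summed FPKM. Read depth per library is unknown because the table holds no counts. Over the whole Rora gene (chr9:68653786-69388246, GRCm38) the level was 8.85 and 8.59 FPKM in CD-fed RORα f/f livers against 7.96 and 8.18 in CD-fed RORα LKO livers, and 7.56 and 7.86 against 7.30 and 8.02 on HFD, where the groups overlapped. Exons 4 and 5 make up 538 of the 10878 bases of the Rora-201 transcript (4.95%), so a whole-gene level checks the deletion poorly and genotype rests on the labels. Of the 9 hepatocyte markers, 9 had more than 1 FPKM in at least 1 library, but albumin (Alb) was listed at 0 in 4 libraries of 3 groups, where an exact 0 can be a failed estimate, so Alb was not read.

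Levels of the 9 genes spanned from about 1 FPKM to over 100 (plot of FPKM by library). Rxra was the most abundant at 97.9 to 125 FPKM in every library, at the 94.7th percentile of the 11634 tested genes by mean level. Ppara (35.7 to 55.5 FPKM) and Ncor1 (40.5 to 47.6) came next and could not be ordered, since Ppara was the higher in 5 of 8 libraries. Below them stood Hdac3 (18.2 to 22.7 FPKM), Rxrb (11.0 to 15.4) and Pparg (3.83 to 6.38), with no overlap between neighbours. Ppargc1a (1.96 to 3.91 FPKM) lay under Pparg in 8 of 8 libraries although their ranges touched. Ppard (1.86 to 2.58) was under Ppargc1a in 6 of 8 and so was not ordered against it, and Ppargc1b (0.943 to 1.89) was the lowest gene in 8 of 8 libraries. The mRNA of PPARα thus made up 84.2 to 89.7% of the summed FPKM of the 3 PPAR genes.

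**Figure D1:**
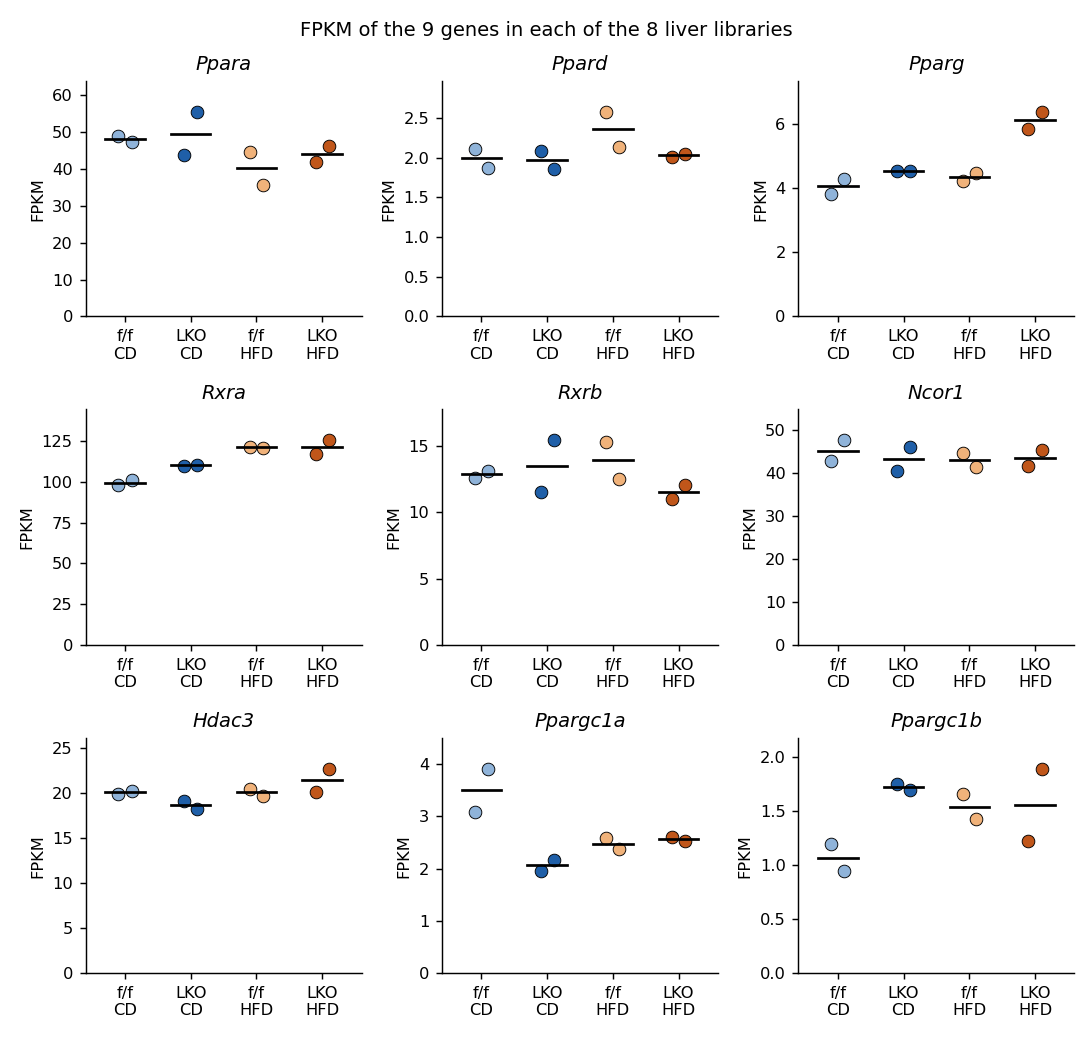
FPKM (linear axis from 0) of each of the 9 genes; points are the 2 libraries of each group and bars their mean. Pparg is highest in both HFD-fed RORα LKO libraries (5.86 and 6.38), Rxra is higher in every HFD than in every CD library, and Ppargc1a is highest in both CD-fed RORα f/f libraries (3.09 and 3.91).

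Pparg (ENSMUSG00000000440, chr6:115360951-115490399, plus strand, GRCm38), the receptor of fat storage, was higher in RORα LKO than in RORα f/f livers on HFD, at a difference that did not pass adjustment over all genes. HFD-fed RORα f/f livers had 4.22 and 4.46 FPKM and HFD-fed RORα LKO livers 5.86 and 6.38 (4.34 ± 0.175 and 6.12 ± 0.373, SD, n = 2 each). CD-fed RORα f/f livers had 3.83 and 4.29 FPKM and CD-fed RORα LKO livers 4.55 and 4.53. Both HFD-fed RORα LKO libraries stood above the other 6, which lay within 3.83 to 4.55. The log2 fold change on HFD, from quantile-normalised log2(FPKM + 1) values as all those below, was 0.42 ± 0.08 (SE), a 1.34-fold difference on that scale (95% interval 1.16 to 1.53), with unadjusted p = 0.00179 and adjusted p = 0.228 by limma. Pparg ranked 88 of 11634 genes by p there. On CD the groups did not overlap either, but the log2 fold change was 0.12 (interval −0.08 to 0.32, adjusted p = 0.583).

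The genotype effect on Pparg was larger on HFD than on CD by 0.30 log2 units (interval 0.01 to 0.58), with unadjusted p = 0.0428 and adjusted p = 0.588, so a difference between diets was not established. Within RORα LKO livers, HFD went with a log2 fold change of 0.40 (adjusted p = 0.0583), and within RORα f/f livers with 0.10 (adjusted p = 0.554). Averaged over both genotypes, Pparg rose with HFD by 0.25 log2 units, from 4.30 ± 0.334 to 5.23 ± 1.05 FPKM (SD, n = 4 each), at adjusted p = 0.0466. That call was held in 3 of 15 alternative settings and was lost when any 1 of the 8 libraries was left out (adjusted p up to 0.136). The mean over genotypes also hides that HFD-fed RORα f/f libraries overlapped the CD libraries.

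Ppara (ENSMUSG00000022383, chr15:85734983-85802819, plus strand), the receptor of fatty acid oxidation, passed no test. Its FPKM was 48.8 and 47.3 in CD-fed RORα f/f, 43.6 and 55.5 in CD-fed RORα LKO, 44.5 and 35.7 in HFD-fed RORα f/f and 41.9 and 46.2 in HFD-fed RORα LKO livers. RORα LKO and RORα f/f libraries overlapped on either diet. The genotype log2 fold change was 0.17 on HFD (interval −0.15 to 0.49) and 0.07 on CD (interval −0.25 to 0.39). HFD-fed RORα f/f libraries lay below the CD-fed ones without overlap, at a log2 fold change of −0.22 (adjusted p = 0.419).

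Ppard (ENSMUSG00000002250, chr17:28232700-28301474, plus strand), the broadly expressed PPAR, had 2.11 and 1.87 FPKM in CD-fed RORα f/f, 2.08 and 1.86 in CD-fed RORα LKO, 2.58 and 2.13 in HFD-fed RORα f/f and 2.01 and 2.05 in HFD-fed RORα LKO livers. On HFD the RORα LKO libraries were both lower, with a log2 fold change of −0.14 (interval −0.41 to 0.12, adjusted p = 0.723). As a share of the summed PPAR FPKM, Pparg made up 11.8 and 11.7% in HFD-fed RORα LKO livers, against 7.00 to 10.5% in the other 6 libraries. The ratio of Ppara to Pparg was accordingly lowest there, at 7.15 and 7.23, against 8.01 to 12.7 elsewhere.

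Rxra (ENSMUSG00000015846, chr2:27676440-27762957, plus strand), the main RXR of hepatocytes and the partner of PPARs, LXR, FXR and other receptors, rose with HFD. CD-fed livers had 97.9 and 101.1 FPKM (RORα f/f) and 109.7 and 110.4 FPKM (RORα LKO), and HFD-fed livers had 121 and 121 FPKM (RORα f/f) and 117 and 125 FPKM (RORα LKO). Every HFD library was above every CD library. The averaged log2 fold change was 0.27 ± 0.04 (SE), or 1.21-fold (interval 1.12 to 1.30), at adjusted p = 0.0153. Without quantile normalisation it was smaller, at 0.21. The call was held in 12 of 15 settings and lost without replicate 1 or 2 of HFD-fed RORα LKO (adjusted p = 0.0559 and 0.0606) or replicate 1 of HFD-fed RORα f/f (adjusted p = 0.0506). In each genotype alone the values were 0.32 in RORα f/f (adjusted p = 0.0637) and 0.22 in RORα LKO (adjusted p = 0.105).

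By genotype, Rxra libraries overlapped on HFD (log2 fold change 0.04, interval −0.10 to 0.19) and were higher in RORα LKO on CD without overlap (0.14, adjusted p = 0.423). The ratio of Rxra to Pparg was 20.02 and 19.7 in HFD-fed RORα LKO livers and 23.6 to 28.8 in the other 6 libraries (plot of ratios).

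Rxrb (ENSMUSG00000039656, chr17:34031812-34038399, plus strand), the second RXR of liver, had 12.6 and 13.1 FPKM in CD-fed RORα f/f, 11.5 and 15.4 in CD-fed RORα LKO, 15.3 and 12.5 in HFD-fed RORα f/f and 11.0 and 12.05 in HFD-fed RORα LKO livers. Libraries were lower in RORα LKO on HFD without overlap, at a log2 fold change of −0.23 (interval −0.58 to 0.12, adjusted p = 0.662). The replicates of CD-fed RORα LKO livers, and those of HFD-fed RORα f/f livers, differed by more than the group means did.

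**Figure D2:**
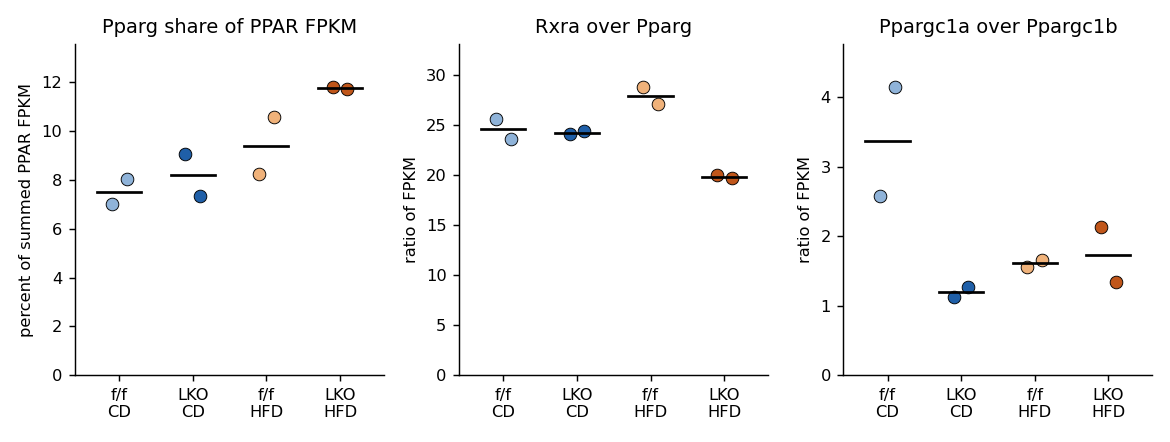
Ratios within each library (linear axes from 0; points are libraries, bars group means): Pparg as percent of the summed FPKM of the 3 PPAR genes, Rxra over Pparg, and Ppargc1a over Ppargc1b. Both HFD-fed RORα LKO libraries are highest in the first panel (11.8 and 11.7%) and lowest in the second (20.02 and 19.7), and in the third the CD-fed RORα f/f libraries are highest (2.59 and 4.14).

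Ncor1 (ENSMUSG00000018501, chr11:62316426-62458541, minus strand), the nuclear receptor corepressor, was the steadiest of the 9 genes. Its FPKM was 42.8 and 47.6 in CD-fed RORα f/f, 40.5 and 46.0 in CD-fed RORα LKO, 44.7 and 41.3 in HFD-fed RORα f/f and 41.7 and 45.3 in HFD-fed RORα LKO livers. Groups overlapped in each comparison, with intervals of −0.18 to 0.25 log2 units for genotype on HFD and −0.26 to 0.17 on CD.

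Hdac3 (ENSMUSG00000024454), the deacetylase of the NCoR complexes, had 19.9 and 20.3 FPKM in CD-fed RORα f/f, 19.1 and 18.2 in CD-fed RORα LKO, 20.5 and 19.7 in HFD-fed RORα f/f and 20.1 and 22.7 in HFD-fed RORα LKO livers. Both CD-fed RORα LKO libraries were the lowest of the 8. Within RORα LKO livers the HFD libraries were higher without overlap, at 0.22 log2 units (interval 0.05 to 0.40, unadjusted p = 0.0209, adjusted p = 0.155). Genotype log2 fold changes were 0.11 on HFD (adjusted p = 0.678) and −0.09 on CD (adjusted p = 0.641).

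Ppargc1a (ENSMUSG00000029167, chr5:51454250-51567726, minus strand), which encodes PGC-1α, an inducible coactivator of fasting metabolism, had 3.09 and 3.91 FPKM in CD-fed RORα f/f livers (3.50 ± 0.581, SD, n = 2). The other 6 libraries held 1.96 and 2.17 FPKM (CD-fed RORα LKO), 2.58 and 2.37 (HFD-fed RORα f/f) and 2.61 and 2.54 (HFD-fed RORα LKO). Both CD-fed RORα f/f libraries were thus the highest and both CD-fed RORα LKO libraries the lowest. On CD the log2 fold change of RORα LKO against RORα f/f was −0.55 ± 0.11 (SE), or 0.682-fold on the FPKM + 1 scale (interval 0.566 to 0.822), with unadjusted p = 0.00196, rank 109 of 11634, and adjusted p = 0.196. At these levels that scale understates relative change, and the log2 fold change on CD reached −0.73 over the alternatives that kept every library. On HFD it was 0.04 (interval −0.23 to 0.31, adjusted p = 0.939), and the difference between diets was 0.59 log2 units (interval 0.21 to 0.98, unadjusted p = 0.00801, adjusted p = 0.558). With HFD the value was −0.35 in RORα f/f (adjusted p = 0.172) and 0.24 in RORα LKO livers (adjusted p = 0.278).

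Ppargc1b (ENSMUSG00000033871), which encodes PGC-1β, a coactivator also tied to lipogenic genes, had 1.19 and 0.943 FPKM in CD-fed RORα f/f, 1.75 and 1.70 in CD-fed RORα LKO, 1.66 and 1.42 in HFD-fed RORα f/f and 1.22 and 1.89 in HFD-fed RORα LKO livers. On CD it was higher in RORα LKO without overlap, by 0.37 log2 units (interval −0.01 to 0.76, adjusted p = 0.414), while its paralog Ppargc1a was lower in the same libraries. The ratio of Ppargc1a to Ppargc1b was 2.59 and 4.14 in CD-fed RORα f/f livers and 1.12 and 1.28 in CD-fed RORα LKO livers, with 1.34 to 2.13 in the HFD libraries. At levels near 1 FPKM, log2(FPKM + 1) understates relative change, and with a pseudocount of 0.1 the Ppargc1b value on CD was 0.61 (adjusted p = 0.39).

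Read against all tested genes, few members stood out. With adjusted p under 0.05, 0 of 9 members were called in 6 of the 7 comparisons and 2 of 9 in the averaged diet comparison, where 9.89% of all genes were called. The share of all genes so called was 0.043% for genotype on HFD, 0.0172% on CD, 0.0344% for the difference of genotype effects, 1.33% for diet in RORα f/f, 3.02% for diet in RORα LKO and 0.103% for genotype averaged over diets. At unadjusted p under 0.05, 1 of 9 members passed for genotype on HFD (9.58% of all genes) and 1 on CD (12.3%). At the same level, 2 passed for the difference (8.35%), 2 for diet in RORα f/f (19.2%), 3 for diet in RORα LKO (21.3%), 2 for averaged genotype (13.5%) and 2 for averaged diet (27.9%). Counts of 1 to 3 of 9 beside these shares are no result about the members as a group. Groups did not overlap for 3 of 9 members by genotype on HFD (42.1% of all genes) and 5 on CD (43.3%), and for 5 by diet in RORα f/f (49.9%) and 4 in RORα LKO (53.2%), shares near the background.

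**Figure D3:**
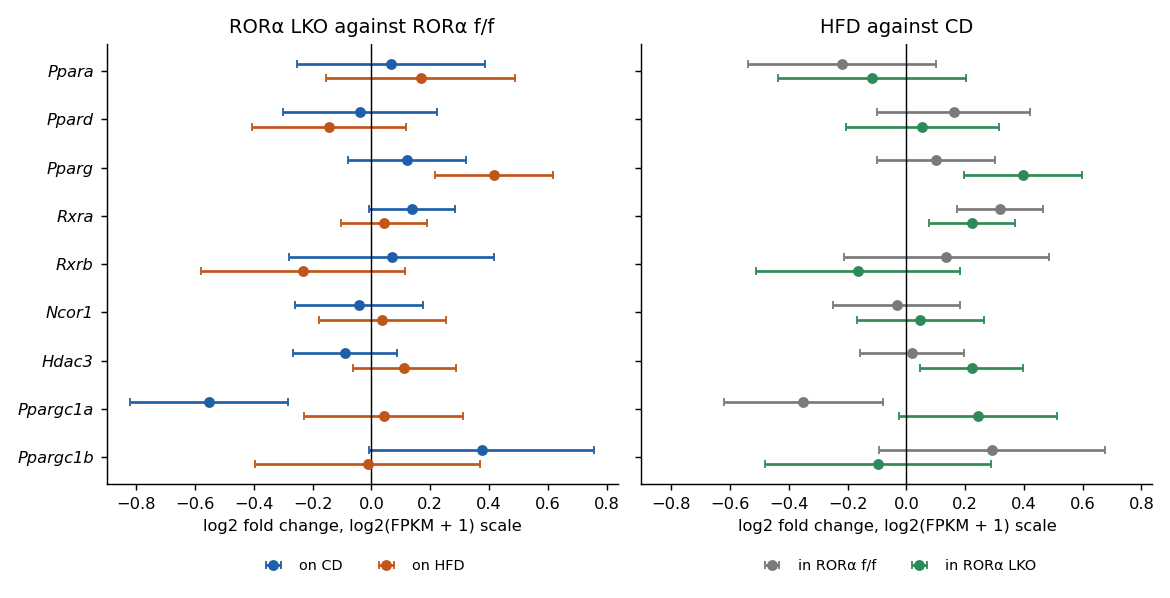
Log2 fold changes of the 9 genes on the log2(FPKM + 1) scale with unadjusted 95% intervals from limma; left, RORα LKO against RORα f/f on each diet; right, HFD against CD in each genotype. On the left the intervals exclude 0 for Pparg on HFD (0.42) and Ppargc1a on CD (−0.55); on the right for Rxra in both genotypes, and for Pparg (0.40) and Hdac3 (0.22) in RORα LKO and Ppargc1a (−0.35) in RORα f/f.

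Known targets of the receptors were described from lists, with calls counted over all genes tested. The lists were chosen with earlier results of these data known, so their counts beside all genes are a description and no independent test. Of 30 PPARα targets of liver, 29 had higher values in RORα LKO than in RORα f/f livers on HFD (median log2 fold change 0.32, against −0.00067 over all tested genes, of which 49.1% were higher). Of these, 18 had unadjusted p under 0.05 (9.58% of all genes did) and 0 passed adjustment by limma. That number was 6 without replicate 2 of HFD-fed RORα f/f, 7 and 9 without replicates 2 and 1 of HFD-fed RORα LKO, and up to 22 without others, while 26 to 30 of the 30 were higher whichever library was left out. Among the targets without overlap and with unadjusted p under 0.05, the largest differences on the log2(FPKM + 1) scale were in Vnn1 and Cyp4a10. Vnn1, a pantetheinase, was at 42.5 and 38.7 against 69.2 and 92.9 FPKM (log2 fold change 1.00, adjusted p = 0.151). Cyp4a10, a fatty acid omega-hydroxylase, was at 453 and 521 against 843 and 1014 FPKM (1.00, adjusted p = 0.375). Pdk4, a brake on pyruvate oxidation, had 1.24 and 1.24 against 4.10 and 2.80 FPKM (0.98, adjusted p = 0.376), and Acot2, a mitochondrial thioesterase, 1.82 and 2.37 against 4.57 and 3.90 FPKM (0.77, adjusted p = 0.374). That scale understates relative change at such low levels. Over the alternatives that kept every library, Pdk4 reached 1.39 and Acot2 1.00. On CD, 24 of 30 were higher (median 0.11) and 5 had unadjusted p under 0.05 (12.3% of all genes did), but 12 of 30 were higher without replicate 2 of CD-fed RORα LKO, and 28 (15 at unadjusted p under 0.05) without replicate 1.

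Of 18 PPARγ targets of fatty liver, 14 were tested and 13 were higher in RORα LKO on HFD (49.1% of all genes were). Their median was 0.64, with 7 at unadjusted p under 0.05 (9.58% of all genes) and 0 after adjustment (0.043% of all genes). Cidec, a lipid droplet protein, had 1.41 and 1.87 FPKM in RORα f/f and 8.15 and 6.83 in RORα LKO livers (log2 fold change 1.70, adjusted p = 0.144). Cd36, a fatty acid translocase, had 17.0 and 29.3 against 63.7 and 60.1 FPKM (1.48, adjusted p = 0.215). Plin4, a droplet coat protein, had 3.57 and 5.79 against 12.1 and 14.2 FPKM (1.36, adjusted p = 0.144), and Fitm1, which aids droplet formation, 18.7 and 24.4 against 36.2 and 43.7 FPKM (0.88, adjusted p = 0.228). These 4 were named for being separated between genotypes with the largest changes, so their separation and size follow from that choice. Of the 14 tested targets, 9 were separated, all higher in RORα LKO (42.1% of all genes were separated in either direction). On CD, 11 of 14 were higher (median 0.39), against 49.1% of all genes, and 4 had unadjusted p under 0.05 (12.3% of all genes did). As on HFD, 9 of the 14 were separated on CD, all higher in RORα LKO (43.3% of all genes were separated in either direction).

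**Figure D4:**
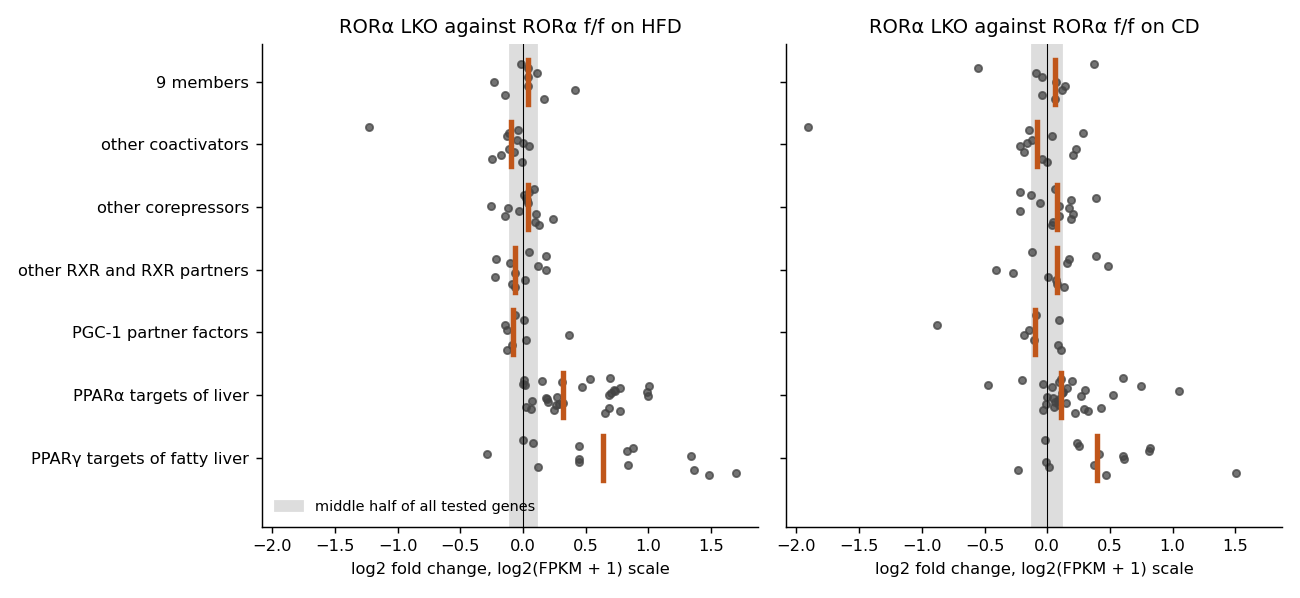
Log2 fold change (log2(FPKM + 1) scale) of RORα LKO against RORα f/f on HFD (left) and CD (right) for each tested gene of 7 lists; orange bars are list medians and the grey band is the interquartile range of all tested genes. On HFD the medians of the PPARα and PPARγ target lists (0.32 and 0.64) lie right of the band and those of the 9 members (0.04) and the other lists lie in it.

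With HFD averaged over genotypes, 10 of 30 PPARα targets rose and 0 fell at adjusted p under 0.05, where 9.89% of all genes were called in either direction. Their median was 0.16, against 0.01 over all genes. Over the 15 alternatives 5 to 11 rose, and without replicate 1 of CD-fed RORα LKO 8 rose and 4 fell. The lower of these, 5, came without replicate 2 of CD-fed RORα f/f or of HFD-fed RORα LKO. Cyp4a14, an omega-hydroxylase, rose most, from 139 to 272 FPKM in the 4 CD libraries to 685 to 1194 in the 4 HFD libraries (log2 fold change 2.50, adjusted p = 0.000753). Acadm (0.64, adjusted p = 0.00809) and Acadl (0.43, adjusted p = 0.00586), which start mitochondrial fatty acid oxidation, also rose. Of the 14 PPARγ targets, 5 were higher and 9 lower with averaged HFD (median −0.10), while 52.7% of all genes were higher. At adjusted p under 0.05, 3 of the 14 rose and 1 fell, beside the 9.89% of all genes called. Cd36 (0.89, held in 6 of 15 settings), Plin4 (1.03, held in 13) and Fabp4 rose and Fasn, the fatty acid synthase, fell, by 1.35 log2 units (adjusted p = 0.00632). In RORα f/f livers alone the diets overlapped for Cd36 and Plin4 (0.38 and 0.23, adjusted p = 0.491 and 0.594), against 1.40 and 1.83 in RORα LKO livers (adjusted p = 0.0511 and 0.0184). Pnpla2, a triglyceride lipase, had 48.95 to 76.5 FPKM on CD and 42.6 to 46.8 on HFD (−0.39, adjusted p = 0.105). The Fabp4 call (0.37, adjusted p = 0.0332) held in 5 of 15 settings and ended on leaving out any 1 library.

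Few other coregulators passed the test by genotype, and few genes did: 0.043% of all genes on HFD and 0.0172% on CD. Of 13 other coactivators, 12 were tested and 1 was called by genotype: Lpin1, a phosphatidate phosphatase that also acts as a coactivator of PPARα with PGC-1α. Its FPKM was 68.8 and 77.4 in HFD-fed RORα f/f against 27.6 and 34.2 in HFD-fed RORα LKO livers, and 68.5 and 77.3 against 17.5 and 18.8 on CD. Lpin1 fell by 1.22 log2 units on HFD (adjusted p = 0.0457) and by 1.91 on CD (adjusted p = 0.00631). The CD call held in 15 of 15 settings and the HFD call in 6 of 15, and the HFD call ended on leaving out any 1 library other than replicate 2 of HFD-fed RORα LKO. On HFD, 11 of 12 coactivators were lower in RORα LKO (median −0.09), with values from −1.22 to 0.04, while 49.1% of all genes were higher. With HFD averaged over genotypes, Lpin1 also passed (0.42, adjusted p = 0.0275, held in 7 of 15 settings). It was at 0.08 in RORα f/f (adjusted p = 0.749), where the diets overlapped, and at 0.76 in RORα LKO livers (adjusted p = 0.0301, held in 6 of 15), and the difference did not pass adjustment (adjusted p = 0.517). Med1 (−0.23, adjusted p = 0.103) and Ncoa4 (−0.20, adjusted p = 0.0904) did not pass.

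Of 14 other corepressors, 0 were called by genotype on HFD, where 10 of 14 were higher (median 0.04), against 49.1% of all genes. Hdac1, a class I deacetylase, had 10.7 and 11.8 against 8.55 and 9.84 FPKM there (−0.25, adjusted p = 0.47). Averaged over genotypes, Gps2, an NCoR complex subunit (0.27, adjusted p = 0.0362, held in 4 of 15 settings), and Sin3a, a scaffold of HDAC complexes (0.37, adjusted p = 0.0365, held in 5 of 15), rose with HFD. Both calls ended on leaving out single libraries, each for any 1 of the 8 except replicate 1 of CD-fed RORα f/f. Hdac4 was at −0.28 (adjusted p = 0.13), and at −0.50 with a pseudocount of 0.1.

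Of 12 genes holding the third RXR (Rxrg) and receptors that pair with RXRs, 11 were tested and none was called by genotype on HFD. FXR (Nr1h4) had 73.9 and 73.6 against 64.0 and 58.0 FPKM there (−0.22, unadjusted p = 0.0252, adjusted p = 0.432). Thyroid hormone receptor α (Thra) rose with averaged HFD by 0.55 log2 units (adjusted p = 0.00586, held in 15 of 15 settings), from 3.50 to 4.95 FPKM on CD to 5.61 to 7.13 on HFD, and CAR (Nr1i3) was the other call (0.58, adjusted p = 0.0302, held in 6 of 15). Among 8 partner factors of PGC-1, 0 were called by genotype on HFD, where 5 of 8 were lower and 49.1% of all genes were higher. Tfam, the mitochondrial transcription factor, was at 18.9 and 21.7 against 26.8 and 25.1 FPKM (0.37, adjusted p = 0.479). Hnf4a, a liver identity factor, rose with averaged HFD (0.28, adjusted p = 0.0475, held in 2 of 15), while Nr3c1, the glucocorticoid receptor, was at 0.18 (adjusted p = 0.0885).

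Markers of other cells were read beside Pparg, which macrophages and fat cells also express. In bulk liver, more cells of a type and more RNA per cell cannot be told apart. For genotype on HFD, 49.1% of all genes were higher in RORα LKO and 9.58% had unadjusted p under 0.05, the shares to set beside each list. All 8 macrophage markers were higher in RORα LKO than in RORα f/f livers on HFD (median 0.39, 2 at unadjusted p under 0.05), with a summed level of 94.8 to 146 FPKM against 80.0 to 97.7, and 99.6 to 112 against 108 to 136 on CD. The sums overlapped on both diets, and on CD 7 of 8 markers were lower in RORα LKO (median −0.21). On HFD 3 of 8 were separated, where 42.1% of all genes were in either direction. Cd68 was at 0.54 (adjusted p = 0.382) and Clec4f, a Kupffer cell lectin, at 0.39 (adjusted p = 0.381). Of 7 adipocyte markers, 3 were tested; Adipoq, Lep, Retn and Plin1 were listed at 0 in at least 1 library and never above 0.377 FPKM, and Cfd had 5.45 and 5.29 FPKM in HFD-fed RORα LKO against 0.182 to 2.76 in the other 6 libraries (adjusted p = 0.328 on HFD). The summed adipocyte level was 19.9 to 20.5 FPKM in HFD-fed RORα LKO livers and 11.5 to 16.6 in the other groups. The 5 red blood cell genes were also all higher in RORα LKO on HFD (median 0.40), with sums of 121 to 198 FPKM that lay within the 65.8 to 228 of HFD-fed RORα f/f livers. On CD all 5 were higher as well (median 1.11), with overlapping sums of 247 to 502 against 85.9 to 420 FPKM. The part of these cells in the Pparg values was not tested.

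With averaged HFD, where Rxra rose, the stellate cell markers Dcn (0.78, adjusted p = 0.0283) and Reln (0.62, adjusted p = 0.0292), 2 of 6, and the endothelial marker Lyve1 (0.76, adjusted p = 0.0213), 1 of 5, also rose (9.89% of all genes were called there), with calls held in 8, 8 and 9 of 15 settings. Of the 6 stellate markers, 4 were higher and 2 lower (lowest −0.14), and 5 of 5 endothelial markers were higher. Summed stellate markers were at 38.1 to 60.3 FPKM on CD and 68.2 to 94.0 on HFD, endothelial ones at 33.2 to 44.5 and 40.9 to 51.1. Of the 9 hepatocyte markers, 5 were higher and 4 lower (median 0.02, with Alb counted). Among them Hnf4a rose and Tat, a glucocorticoid-induced enzyme, fell by 1.14 log2 units (adjusted p = 0.00606). Ttr, which encodes transthyretin, was called on the normalised scale (0.39, held in 5 of 15 settings, adjusted p up to 0.917), but its deposited level did not differ that way, at 4221 ± 259.7 FPKM on CD and 4183 ± 111 on HFD (SD, n = 4 each). Cps1, a urea cycle enzyme, had 737 ± 61.9 and 543 ± 105.5 FPKM, at −0.30 (adjusted p = 0.0668) as fitted and down to −0.46 over the alternatives, where it passed in 4 of 15 (adjusted p from 0.00655). By genotype on HFD Cps1 was at −0.46 (adjusted p = 0.31), while 5 of the 9 hepatocyte markers were higher and 4 lower (median 0.05, with Alb counted). All 5 red blood cell genes were lower with averaged HFD (median −0.87). Alas2 alone was called, with the smallest fall of the 5, at 0.56 (adjusted p = 0.00936). The 4 cholangiocyte markers had 1 tested gene, with no call. What part these have in the Rxra values was not tested.

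Genes most alike to 3 members over the 8 libraries, by Pearson's r of normalised log2 values against 11633 others, are given as a description; the libraries share 4 groups, and group differences enter r. Pparg was most like Leprotl1 (r = 0.985), Hexa, a lysosomal hexosaminidase (0.982), and Gpd1, glycerol-3-phosphate dehydrogenase, which supplies glycerol-3-phosphate (0.981). Gpd1 had 176 and 181 FPKM in HFD-fed RORα LKO livers and 98.5 to 124 in the other 6 libraries. Ppargc1a was most like Eif2ak3, an endoplasmic reticulum stress kinase (0.983), Srprb (0.973) and Trmo (0.961), with Eif2ak3 at 4.26 and 5.12 FPKM in CD-fed RORα f/f and 2.57 and 3.01 in CD-fed RORα LKO livers. Ppara was most like Sik3 (0.96), Gm15298 (0.945) and Wrnip1 (0.924).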

How the data were processed

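Poly(A) RNA from 8 pooled mouse livers was sequenced. Per the labels and the study's methods, the authors trimmed reads with cutadapt 1.0, aligned them to GRCm38 with TopHat2 2.0.7 and deposited FPKM per gene from Cufflinks (version not given in the sources used here). FPKM keeps no read depth, and an exact 0 can be a failed estimate. As in the study, genes above 1 FPKM in at least 1 library were kept (11634 of 38283) and log2(FPKM + 1) values quantile normalised. Differences were then tested with limma 3.58.1 (R 4.3.3; moderated variance with trend, 1 fit over 4 groups of 2, 4 residual degrees of freedom) in 7 contrasts, with Benjamini-Hochberg adjustment over all tested genes. Calls are adjusted p under 0.05. The authors' own permutation of libraries was not run. The fit was tested on simulated data. Groups come from the labels; same-numbered libraries are different mice and were not paired.

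The members and lists were chosen with earlier results of these data known. Named list genes were up to 4 per list with the largest change among those with unadjusted p under 0.05 and groups without overlap (deposited FPKM), for genotype on HFD and for averaged diet; all members and Rora were named, with the 3 genes most correlated with Ppara, Pparg and Ppargc1a, and other genes called in a list were added after their values were seen. Windows came from RefSeq GRCm38.p6 and gene positions from GENCODE M21. Hdac3 and Ppargc1b sequences were not used here. One list gene that the rule names is not reported here. The members' log2 fold changes, those of named list genes in the contrast that named them, called list genes for averaged diet, diet in RORα LKO and genotype on CD, and the counts of calls and of targets were recomputed under 15 alternatives (14 for Ppargc1b, Cfd and Hdac4, which the stricter filter removes); sums, ratios, medians and correlations were not. The alternatives were 2 normalisations, pseudocount 0.1, 2 filters, a replicate block, no variance trend and each library left out.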

Additional observations from a re-analysis of the deposited data

Results flagged for a closer look

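Ppargc1a was flagged because the diet groups separated in opposite directions in the genotypes. Separation by diet was common, in 49.9% of all genes in RORα f/f and 53.2% in RORα LKO livers. The share of all genes separated in opposite directions was not counted. Both HFD-fed RORα f/f libraries (2.58 and 2.37 FPKM) lay below both CD-fed ones (3.09 and 3.91), and both HFD-fed RORα LKO libraries (2.61 and 2.54) above both CD-fed ones (1.96 and 2.17). The difference of the effects was 0.59 log2 units with adjusted p = 0.558 by limma, and 0.47 to 0.79 over the 15 alternatives, with adjusted p from 0.405 to 0.85, so it did not pass the test of the difference under any of them.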

How the results depend on the processing

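With 2 pools per group and no read counts, small differences could not be resolved. Over 1476 recomputed log2 fold changes of members and named genes (the named genes chosen for this after seeing the data), 1434 kept their sign and 42 changed it, 38 of these from values under 0.1 in size; the adjusted p crossed 0.05 in 82.

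For genes called at adjusted p under 0.05, keeping all genes above 0 FPKM gave 24 for genotype on HFD (5 as reported), 10 on CD (2), 19 for the difference (4), 46 for diet in RORα f/f (155), 135 in RORα LKO (351), 28 for averaged genotype (12) and 704 for averaged diet (1151). Requiring more than 1 FPKM in all 8 libraries gave 7, 0, 323, 570 and 50 for genotype on CD, the difference, diet in RORα f/f, diet in RORα LKO and averaged genotype. A pseudocount of 0.1 gave 1 on CD and 2 for the difference. Without the trend there were 4 on CD, 42 for diet in RORα f/f and 229 in RORα LKO, and without quantile normalisation 7 for averaged genotype. Same-numbered libraries share only a number (deviations of groups correlated at −0.00371 to 0.149); with a replicate block, 34 and 223 genes were called for diet in RORα f/f and RORα LKO, and the other counts stayed within 1.5 times. Leaving out 1 library gave 4 to 21 (genotype on HFD), 2 to 19 (CD), 10 to 21 (difference), 14 to 49 (diet in RORα f/f), 21 to 154 (diet in RORα LKO), 13 to 30 (averaged genotype) and 374 to 816 (averaged diet). The causes were not tested.

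Of the 9 members, those with unadjusted p under 0.05 on CD numbered 2 without quantile normalisation, 3 with median centring, 2 with pseudocount 0.1, 2 with all genes above 0 and 2 without the trend (1 as reported); for the difference the number was 1 without quantile normalisation, with pseudocount 0.1 and with the stricter filter (2 as reported). Leaving out 1 library gave 1 to 2 for both and 1 to 3 for diet in RORα f/f (2 as reported), 2 to 4 for diet in RORα LKO (3) and 2 to 3 for averaged genotype and averaged diet (2 each).

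Signs changed without quantile normalisation for Hdac3 by averaged genotype (−0.0073) and Ncor1 by averaged diet (−0.030), and with median centring for these (−0.00059 and −0.0027) and Ppargc1b by genotype on HFD (0.0054). Leaving out 1 library, log2 ranges that crossed 0 were, for Ncor1, −0.026 to 0.099 (genotype on HFD), −0.12 to 0.037 (CD), −0.11 to 0.047 (diet in RORα f/f), −0.032 to 0.13 (diet in RORα LKO), −0.043 to 0.038 (averaged genotype) and −0.032 to 0.047 (averaged diet). For Hdac3 they were −0.011 to 0.047 (diet in RORα f/f) and −0.026 to 0.045 (averaged genotype). For Ppara they were −0.087 to 0.22 (genotype on CD), −0.27 to 0.036 (diet in RORα LKO) and −0.058 to 0.26 (difference), and for Ppard −0.099 to 0.022 (genotype on CD). For Ppargc1a the range was −0.12 to 0.0092 (averaged diet), and for Ppargc1b −0.22 to 0.19 (genotype on HFD), −0.30 to 0.11 (diet in RORα LKO) and −0.0041 to 0.20 (averaged diet). For Rxrb they were −0.14 to 0.27 (genotype on CD), −0.37 to 0.040 (diet in RORα LKO), −0.18 to 0.019 (averaged genotype) and −0.12 to 0.088 (averaged diet).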
